A study of Mus musculus with 6 samples.

Results

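Interferon-stimulated genes are the genes that cells switch on when an interferon reaches its receptor. A list of 43 human genes of this kind was followed in leukemic cells taken from mice, its rows picked from the table by gene symbol. Of these, 40 had a row in the deposited table of 13892 human gene symbols and 40 were tested. ISG15, ISG20 and IFI27 are not analysed here.

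The cells were human acute myeloid leukemia (AML) raised in NSG mice, an immunodeficient strain that accepts human blood cells. Human hematopoietic stem cells had been transduced with NPM1c, the leukemia-associated cytoplasmic form of nucleophosmin, with GFP as the surrogate of its expression. All 6 libraries therefore carry NPM1c. Marrow of 3 moribund mice, each from its own transduction, was sorted into bulk leukemic cells, positive for GFP and CD33, or into leukemic stem cells (LSC), positive for CD123 in addition, which gave 3 bulk and 3 LSC libraries. No age, treatment or cell number was given in the labels, and no healthy or interferon-treated control is part of the design. The bulk gate did not exclude CD123, so bulk may hold some LSC. A bulk and an LSC library that share a number are from 1 animal.

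Values are the authors' log2 CPM, where CPM stands for reads per 1000000 of the normalized library size after a small addition, and CPM below is the same value without the logarithm. Libraries held 10669560 to 14933494 reads, of which 3423878 to 9571165 lay outside the MTRNR2L rows, which are nuclear copies of mitochondrial ribosomal RNA. Bulk replicate 1 was the shallowest, with 0.171 CPM for 1 read against 0.0634 to 0.0847 CPM elsewhere. LSC replicate 3 had 262 genes without a read, against 51 to 143 in the others. CPM is not divided by gene length, so levels are compared between libraries and never between genes. IL3RA, which encodes CD123, followed the gate at 1.56, 2.14 and 2.39 CPM in bulk and 139.5, 48.01 and 135 CPM in LSC. The stem and progenitor antigen gene CD34 stood at 17.3, 7.22 and 26.8 CPM in bulk and 5.41, 3.25 and 0.749 CPM in LSC, lower in LSC in each mouse. CD33, required by both gates, was at 4.47, 8.23 and 13.1 CPM in bulk and 6.82, 8.07 and 1.19 CPM in LSC, and NPM1 at 911, 733 and 788 CPM in bulk and 516, 323 and 417 CPM in LSC. Markers of plasmacytoid dendritic cells, the blood cells that make most type I interferon, were high in LSC: the sum over 22 genes was 2434 to 3952 CPM against 202 to 556 CPM in bulk. In bulk, SCT was without a read in all 3 libraries and LILRA4 in 2 of 3, while 19 of the 22 passed the test as higher in LSC. LILRA4, GZMB, PTGDS, PACSIN1 and SCT entered the test through LSC alone, since no bulk library reached 1 CPM. A difference between their groups is therefore built in, and that of IL3RA follows from the gate. Summed CPM of 12 monocyte markers was 3619 to 5721 in bulk and 1034 to 2760.0 in LSC, where 2 of them had no read in replicate 3. LYZ alone was at 2505 to 4500 CPM in bulk and 856 to 2210 CPM in LSC. Of the 11 tested, 1 rose and 1 fell without the block, and 1 rose and 6 fell with it. CCR2 was the gene that rose in both fits. Summed CPM of 11 erythroid markers was 291 to 1365 in bulk and 33.8 to 510.1 in LSC, where 3 had no read in replicate 3, and 2 of 11 fell in the unblocked and 8 in the blocked fit. Summed CPM of 11 B lineage markers was 208 to 1437 in bulk and 48.8 to 73.3 in LSC, where 1 had no read in replicate 3, and of the 10 tested 2 fell in the unblocked and 7 in the blocked fit. Beside these marker counts, the unblocked fit called 2.71% of all genes tested higher in LSC and 1.33% lower. The blocked fit called 8.25% higher and 7.71% lower.

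Type I interferons bind a receptor made of IFNAR1 and IFNAR2, and the kinases JAK1 and TYK2 then phosphorylate STAT2. Together with IRF9 it takes part in the complex ISGF3, which binds interferon-stimulated response elements in front of genes such as MX1, OAS1 and the IFIT genes. Interferon gamma acts through its own receptor, and the guanylate-binding proteins (GBP) are among its best known targets. The products sense viral RNA, block its translation, degrade it, or hold virus particles at membranes.

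LSC and bulk were compared first, the comparison that the sort was made for. Few members differed, and they did so in both directions: 4 of 40 rose in LSC (10%), against 2.71% of the 13755 genes tested, and 1 fell (2.5%), against 1.33%. Those that rose were STAT2, MX1, IFI44 and IFI44L, and GBP5 fell. The other 35 did not pass limma with Benjamini-Hochberg adjustment over all genes at 0.05. With the mouse as a block, which removes the level each mouse brings to both of its libraries, 5 rose (background 8.25%) and 5 fell (background 7.71%). The block added OAS1 to the rising members and GBP1, GBP2, OAS3 and IFI6 to the falling ones. The median log2 change was -0.0031 over the 40 members and -0.0036 over all genes tested, and 20 members had positive and 20 negative changes. Changes were larger than 1 in size in 37.5% of members and 26.9% of all genes tested. The part of the plasmacytoid dendritic cell, monocyte, erythroid and B lineage marker differences in these counts was not tested. In sorted populations, fewer cells of a type and less RNA per cell cannot be told apart.

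**Figure D1:**
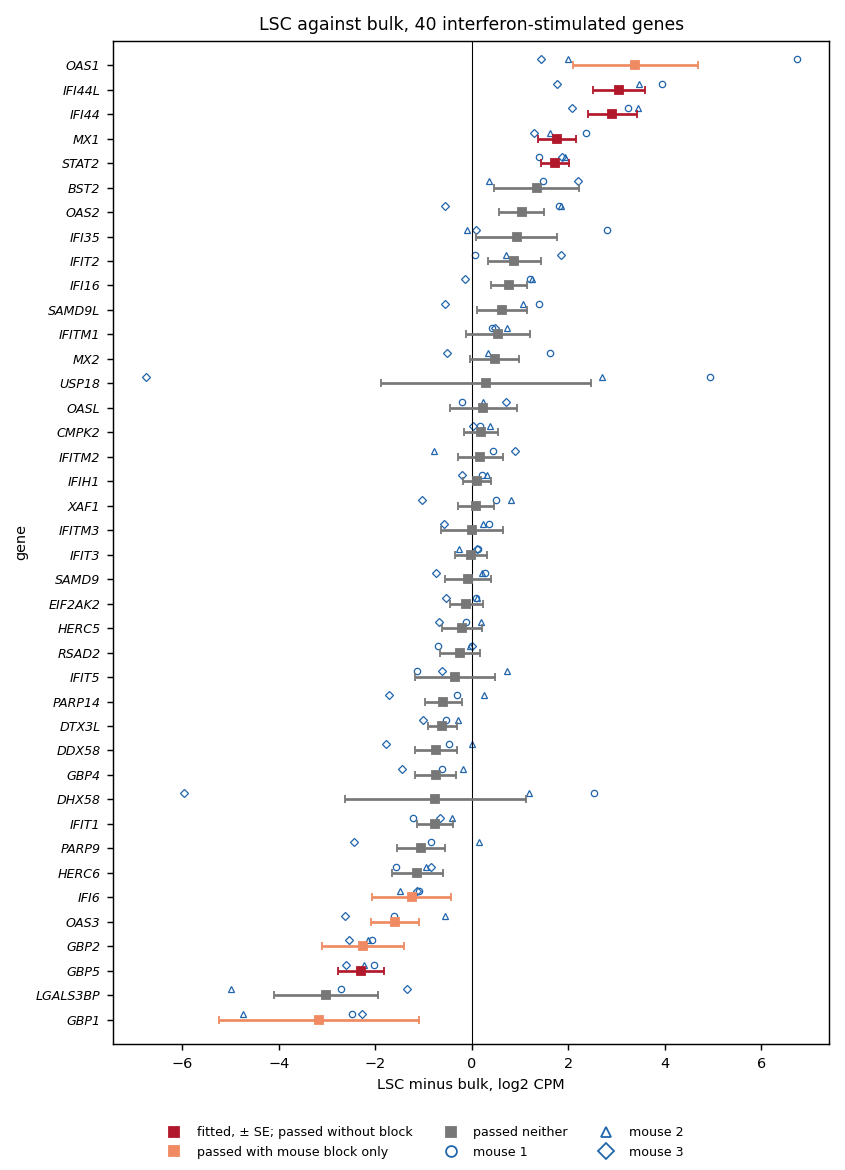
LSC minus bulk difference of each of the 40 genes in log2 CPM. Squares are limma estimates with standard error bars over 3 bulk and 3 LSC libraries, coloured by the test passed, and open symbols are the differences within mice 1, 2 and 3. OAS1, IFI44L, IFI44, MX1 and STAT2 lie farthest to the right and GBP1, LGALS3BP, GBP5 and GBP2 farthest to the left.

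STAT2, the signal carrier specific to type I and type III interferons, rose in LSC. It stood at 67.1, 71.7 and 51.3 CPM in the bulk libraries of mice 1, 2 and 3 and at 176, 273 and 188 CPM in the LSC libraries. Every LSC library lay above every bulk library, and the log2 change was 1.73 (SE 0.29, limma adjusted p = 0.0139, 0.00143 with the block), a 3.32-fold difference. The change within mice 1, 2 and 3 was 1.39, 1.93 and 1.88, close to the same in each. It was the only member that stayed past the threshold when any single library was left out (adjusted p 0.0305 to 0.0476). Without both libraries of any 1 mouse its unblocked call was lost (adjusted p 0.0563 to 0.141), while its blocked call stayed (adjusted p at most 0.0292). The blocked calls of MX1, IFI44, IFI44L, GBP5 and GBP2 stayed there too (adjusted p at most 0.0394), in fits with 1 residual degree of freedom.

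The RNA sensors that start the response did not pass in either direction. DDX58 (RIG-I) and IFIH1 (MDA5) are helicases that recognise viral double-stranded RNA, and DHX58 (LGP2) regulates both. DDX58 stood at 38.9, 21.8 and 73.8 CPM in the bulk libraries of mice 1, 2 and 3 and at 28.03, 21.8 and 21.7 CPM in the LSC libraries. It was highest in bulk of mouse 3, and the groups overlapped (log2 change -0.75, SE 0.44, adjusted p = 0.373). IFIH1 was nearly even over the libraries, at 42.6 to 69.2 CPM (log2 change 0.10, adjusted p = 0.871). DHX58 was low and uneven: LSC held 68 and 55 reads in mice 1 and 2 and 0 in mouse 3, against 5, 18 and 19 reads in bulk. A count of 0 in LSC replicate 3 allows up to 3 reads, or 0.219 CPM, a limit that covers counting error only. In mice 1 and 2 the LSC values of DHX58, 5.04 and 3.51 CPM, lay above all 3 bulk values, 0.876 to 1.54 CPM, and over all libraries the log2 change was -0.75 (SE 1.88, adjusted p = 0.850).

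OAS proteins make the short adenylate chains that activate RNase L, and 2 of the 4 measured passed with the block only, in opposite directions. OAS1 stood at 0.191, 7.39 and 11.9 CPM in the bulk libraries of mice 1, 2 and 3 and at 20.3, 29.4 and 32.04 CPM in the LSC libraries. The LSC libraries all lay above the bulk libraries, but bulk replicate 1 had only 1 read, and the change, 3.39 on the log2 scale with SE 1.29, did not pass without the block (adjusted p = 0.186, 0.0322 with it). Without bulk replicate 1 the change was 1.52 (adjusted p = 0.166). The blocked call was lost without mouse 2 (adjusted p = 0.0864).

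OAS3, its relative with the longest chain of repeated domains, lay lower in LSC, at 28.8, 34.5 and 36.4 CPM in bulk and 9.48, 23.5 and 5.93 CPM in LSC. Here all LSC libraries lay below all bulk libraries (log2 change -1.59, SE 0.49, adjusted p = 0.111, 0.0267 with the block, lower in 3 of 3 mice). The blocked call was lost without mouse 1 (adjusted p = 0.114). OAS2 stood at 30.5, 36.7 and 95.6 CPM in bulk and 107, 132 and 65.2 CPM in LSC: LSC was higher in mice 1 and 2 and lower in mouse 3, and the log2 change, 1.03, missed the threshold (adjusted p = 0.249). OASL, which lacks the enzymatic activity, lay at 1.05 to 2.81 CPM in all libraries with a change of 0.24. OAS family members have similar sequence, so part of the reads could have been assigned to a relative.

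Of the MX proteins, dynamin-like GTPases that trap viral nucleocapsids, MX1 rose and MX2 did not pass. MX1 stood at 25.02, 58.7 and 36.9 CPM in the bulk libraries of mice 1, 2 and 3 and at 129.9, 181 and 89.7 CPM in the LSC libraries. The lowest LSC library, that of mouse 3, lay above the highest bulk library, that of mouse 2 (log2 change 1.76, SE 0.39, adjusted p = 0.0410, 0.00334 with the block). The unblocked call was close to the threshold and was lost without bulk replicate 1 or 3 or any 1 of the LSC libraries (adjusted p 0.0562 to 0.151). MX2 was at 9.78, 16.8 and 11.6 CPM in bulk and 30.2, 21.1 and 8.12 CPM in LSC, highest in LSC of mouse 1 and lowest in LSC of mouse 3 (log2 change 0.48, adjusted p = 0.636).

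IFI44 and IFI44L, related cytoplasmic proteins and common markers of a type I interferon response, had the largest increases among members past the unblocked test. IFI44 stood at 13.03, 20.6 and 12.1 CPM in the bulk libraries of mice 1, 2 and 3 and at 122, 223 and 51.1 CPM in the LSC libraries. IFI44L stood at 18.2, 43.8 and 31.9 CPM in the bulk libraries of mice 1, 2 and 3 and at 279, 484 and 108 CPM in the LSC libraries. In both genes the order of the LSC libraries was mouse 2, mouse 1, mouse 3, and the lowest LSC library was still above the highest bulk library. The log2 changes were 2.91 (SE 0.51, adjusted p = 0.0167) and 3.06 (SE 0.54, adjusted p = 0.0173), or 7.54-fold and 8.32-fold, and both were higher in 3 of 3 mice. Both calls were lost without bulk replicate 1 (adjusted p = 0.0551 and 0.0562) and without LSC replicate 1 (0.0597 and 0.0623). With the block they passed (0.000720 and 0.00154).

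Of the other genes named IFI, 1 passed, with the block. IFI6, a mitochondrial and endoplasmic reticulum protein that blunts cell death, stood at 19.9, 70.3 and 9.04 CPM in the bulk libraries of mice 1, 2 and 3 and at 9.26, 24.9 and 4.10 CPM in the LSC libraries. In each mouse LSC was lower by a similar amount, with log2 differences of -1.10, -1.50 and -1.14, while the mice themselves lay far apart and the groups overlapped. It fell with the block (adjusted p = 0.0217) and did not pass without it (log2 change -1.25, SE 0.81, adjusted p = 0.423). The blocked call was lost without mouse 1 (0.105) or mouse 2 (0.175). IFI16, a nuclear sensor of DNA, was at 132, 103 and 286 CPM in bulk and 304, 246 and 260.4 CPM in LSC. Bulk of mouse 3 reached the LSC level, and the difference, 0.77, did not pass (adjusted p = 0.289). IFI35 was low, at 0.533 to 3.71 CPM (log2 change 0.93, adjusted p = 0.563).

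**Figure D2:**
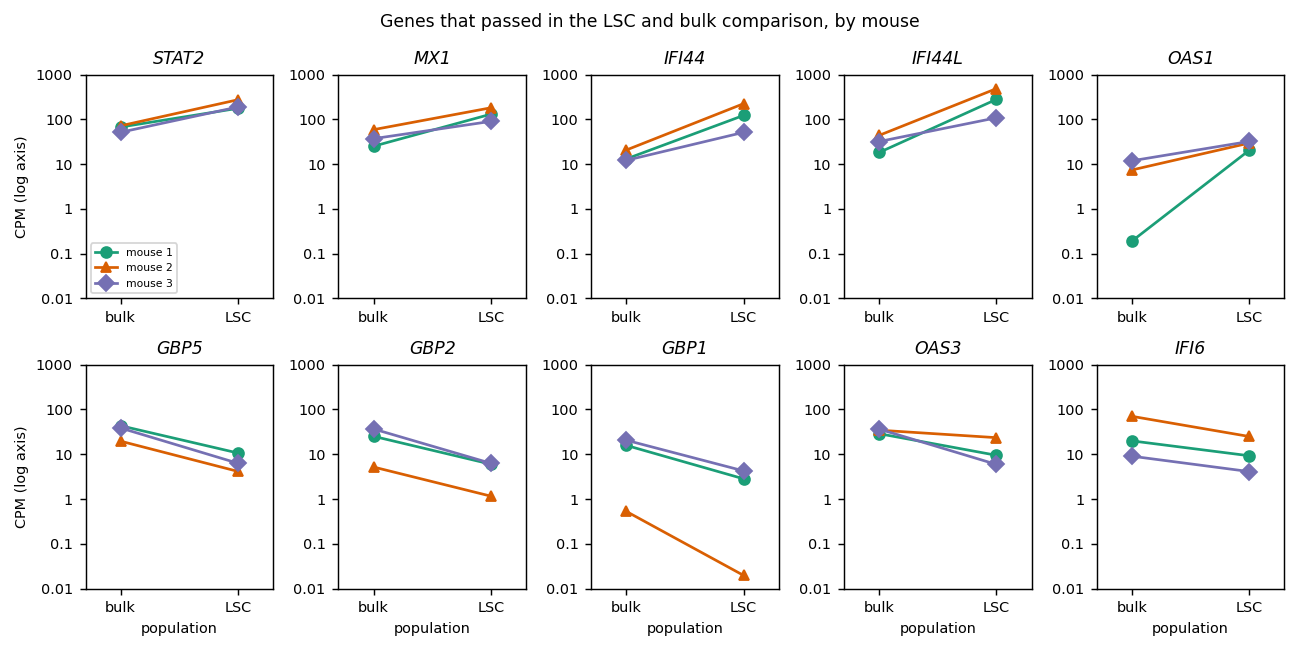
CPM (log axis, the same on all panels) of the 10 genes that passed with or without the block, in bulk and LSC, with a line for each mouse. Lines of the upper panels all go up and those of the lower panels all go down. In IFI6 and GBP2 the lines run side by side at different heights, and in OAS1 the bulk value of mouse 1 rests on 1 read.

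The 4 members among the guanylate-binding proteins, GTPases that coat vacuoles and bacteria inside cells, were lower in LSC in every mouse. All 4 members had negative changes; 1 fell without the block and 3 with it. GBP5 stood at 43.3, 19.6 and 38.5 CPM in the bulk libraries of mice 1, 2 and 3 and at 10.7, 4.14 and 6.29 CPM in the LSC libraries. The highest LSC library was below the lowest bulk library (log2 change -2.29, SE 0.47, adjusted p = 0.0309, 0.00188 with the block), a 4.90-fold lower level. Without the block the call was lost when bulk replicate 1 or 3 or LSC replicate 2 or 3 was left out (adjusted p 0.0647 to 0.126).

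GBP2 stood at 25.2, 5.19 and 36.7 CPM in bulk and 6.01, 1.16 and 6.29 CPM in LSC. Both libraries of mouse 2 were low, so bulk of mouse 2 lay below LSC of mice 1 and 3. Within mice the differences were -2.07, -2.16 and -2.55, and GBP2 fell with the block (adjusted p = 0.00430) but not without it (log2 change -2.26, SE 0.86, adjusted p = 0.185). GBP1 had the same form, with 92, 6 and 321 reads in bulk and 38, 0 and 58 in LSC, or 15.8, 0.528 and 20.6 CPM in bulk and 2.83 and 4.25 CPM in LSC of mice 1 and 3, while 0 reads in LSC of mouse 2 allow up to 0.190 CPM. Its change, -3.17 on the log2 scale (SE 2.06, adjusted p = 0.423, 0.0221 with the block), leans on the small prior added to the library of mouse 2 without a read. It was -1.01 with a pseudocount of 5 CPM and -0.68 without LSC replicate 2, and the blocked call was lost without mouse 1 (adjusted p = 0.148).

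GBP4 was at 109, 64.04 and 222 CPM in bulk and 70.9, 56.6 and 81.6 CPM in LSC, highest in bulk of mouse 3 (log2 change -0.75, adjusted p = 0.362, 0.0874 with the block). GBP3, which is not on the member list, had LSC minus bulk differences of 0.07, -1.50 and -1.97 in mice 1, 2 and 3. It passed neither fit (limma adjusted p = 0.461, 0.144 with the block). GBP genes lie in a cluster of similar sequence, and reads could be divided unevenly among them. Summed CPM of the monocyte, erythroid and B lineage markers was lower in LSC of each mouse as well, and the part of these cells in the GBP values was not tested.

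IFIT proteins bind viral RNA that lacks host cap marks. None of the 4 passed, and their changes had both signs. IFIT1 stood at 15.9, 14.7 and 12.1 CPM in the bulk libraries of mice 1, 2 and 3 and at 6.82, 10.99 and 7.68 CPM in the LSC libraries. All LSC libraries were below all bulk libraries, but the difference was small (log2 change -0.77, SE 0.37, adjusted p = 0.285). IFIT2 had a change of 0.88 (adjusted p = 0.405) with overlapping groups, at 16.97, 5.52 and 7.70 CPM in bulk and 17.8, 9.02 and 27.9 CPM in LSC. IFIT3 lay between 20.4 and 35.4 CPM in every library, with a change of -0.0089 (SE 0.33). IFIT5 was highest in both libraries of mouse 3, at 16.2 CPM in bulk and 10.6 CPM in LSC of mouse 3 against 1.65 to 5.09 CPM in the other 4 libraries (log2 change -0.34, adjusted p = 0.847).

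IFITM1, IFITM2 and IFITM3, short membrane proteins that stop virus fusion, had low levels, at 1.39 to 15.6 CPM, and none passed: log2 changes were 0.55, 0.18 and 0.0027 in that order (adjusted p 0.679 to 0.998). Their sequences are nearly alike, so the division of reads among the 3 is uncertain. BST2 (tetherin), which holds budding virions at the cell surface, was at 1.05, 2.73 and 0.340 CPM in bulk and 2.90, 3.51 and 1.55 CPM in LSC. LSC was higher in each mouse, but the log2 difference, 1.34, did not pass (SE 0.89, adjusted p = 0.429).

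In the ISG15 system, which attaches the ubiquitin-like ISG15 to proteins, USP18 removes ISG15 and shuts down the receptor, and HERC5 is the main ligase. USP18 held 1, 20 and 33 reads in bulk and 79, 174 and 0 in LSC, or 0.191, 1.71 and 2.13 CPM in bulk and 5.86 and 11.1 CPM in LSC of mice 1 and 2. It was thus higher in LSC of mice 1 and 2 than in any bulk library and had no read in LSC of mouse 3, where up to 0.219 CPM is allowed. The log2 change over all libraries was 0.29 (SE 2.18, adjusted p = 0.954), and 3.18 without LSC replicate 3 (adjusted p = 0.190). HERC5 lay at 14.7 to 32.9 CPM with overlapping groups (log2 change -0.20). HERC6 was at 6.01, 9.50 and 10.3 CPM in bulk and 2.01, 4.90 and 5.71 CPM in LSC, lower in LSC in 3 of 3 mice, and did not pass (log2 change -1.13, adjusted p = 0.271, 0.0872 with the block).

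PARP9 and DTX3L form a complex that modifies histones and ubiquitin, and PARP14 is an ADP-ribosyltransferase tied to the same response. All 3 had negative changes that did not pass, -1.05, -0.61 and -0.59 (adjusted p 0.274 to 0.432). PARP9 stood at 68.3, 71.5 and 93.4 CPM in bulk and 37.9, 78.9 and 17.3 CPM in LSC. PARP14 stood at 290.2, 241 and 670.4 CPM in bulk and 235, 289 and 203 CPM in LSC. Bulk of mouse 3 was the highest library and LSC of mouse 3 the lowest in both genes. DTX3L was at 98.5, 135 and 133 CPM in bulk and 68.2, 111 and 65.7 CPM in LSC, and the groups overlapped.

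Among the remaining effectors none passed. EIF2AK2 (PKR), the kinase that halts translation on double-stranded RNA, was at 57.9 to 126 CPM and lowest in LSC of mouse 3 (log2 change -0.11). RSAD2 (viperin) and its neighbour CMPK2, which together supply a chain-terminating nucleotide, had changes of -0.24 and 0.19. CMPK2 was the most even member, at 10.7 to 15.6 CPM, a range of 0.54 on the log2 scale against a median range of 2.15 over the members and 1.74 over all genes tested. SAMD9 and SAMD9L, growth-restraining antiviral proteins altered in some inherited marrow failure and myeloid disease, had changes of -0.079 and 0.63 (adjusted p = 0.942 and 0.523). SAMD9L stood at 112, 66.2 and 288 CPM in bulk and 295, 138 and 195 CPM in LSC, with bulk of mouse 3 level with LSC of mouse 1.

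XAF1, a pro-apoptotic partner of XIAP, was at 266, 212 and 540.2 CPM in bulk and 377, 370.2 and 264 CPM in LSC (log2 change 0.091, SE 0.37, adjusted p = 0.911). LGALS3BP, a secreted galectin-binding glycoprotein, had the largest negative change among members that passed neither with nor without the block. It held 12, 31 and 35 reads in bulk and 4, 1 and 12 in LSC, or 2.07, 2.65 and 2.26 CPM in bulk and 0.315, 0.0831 and 0.895 CPM in LSC (log2 change -3.02, SE 1.07, adjusted p = 0.159, 0.0949 with the block). It entered the test through the bulk libraries alone, since no LSC library reached 1 CPM, and a difference between its groups is therefore built in. The groups overlapped for 30 members, while 5 lay wholly higher in LSC (STAT2, OAS1, MX1, IFI44 and IFI44L, background 13.2%) and 5 wholly lower (IFIT1, OAS3, GBP5, HERC6 and LGALS3BP, background 11.9%).

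**Figure D3:**
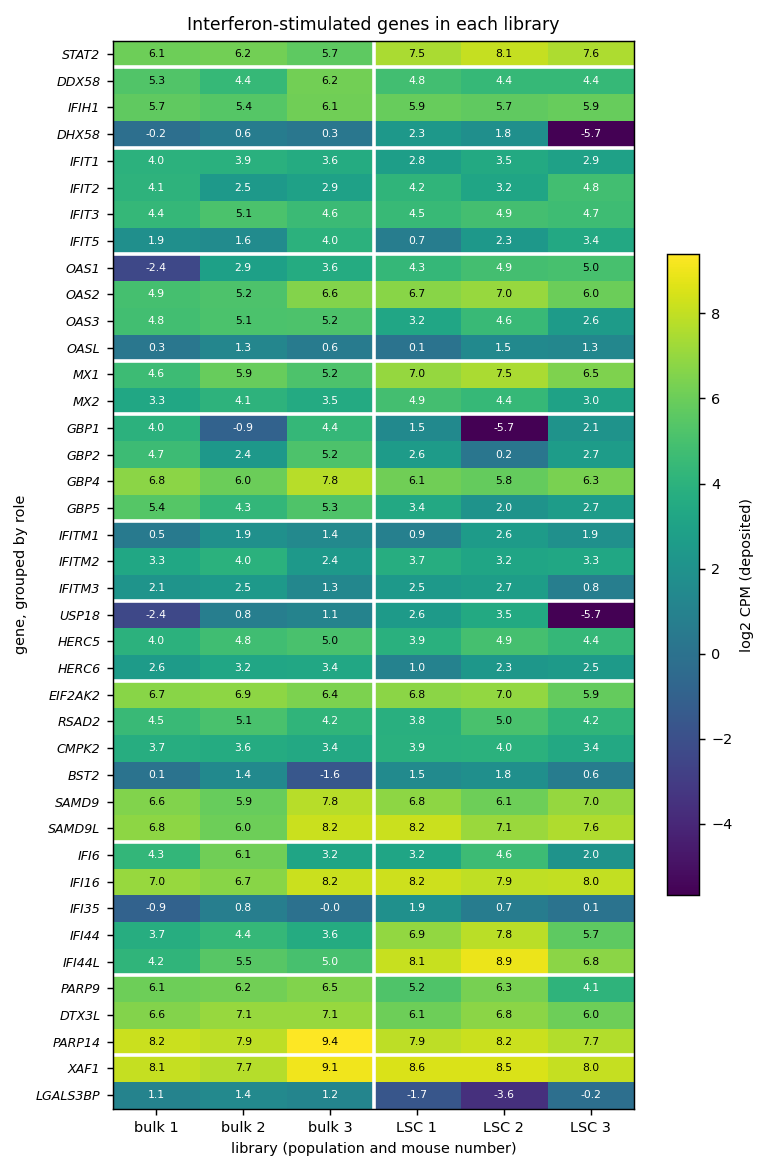
Log2 CPM of the 40 genes (rows, grouped by role and separated by white lines) in the 3 bulk and 3 LSC libraries (columns), with the value in each cell. Values of -5.7 are libraries without a read, which occur for DHX58 and USP18 in LSC of mouse 3 and for GBP1 in LSC of mouse 2.

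The 3 mice carried cells of separate transductions, and the members were next compared among them, with the population held fixed (limma F test of the mouse term, Benjamini-Hochberg adjustment over all genes). GBP1, GBP2 and IFI6 differed among the mice, 3 of 40 members (7.5%), against 1.56% of all genes tested. Mouse 2 was low for GBP1 and GBP2 in both populations (adjusted p = 0.0200 and 0.0359), at 5.19 CPM in bulk and 1.16 CPM in LSC for GBP2 against 25.2 and 36.7 CPM in the other bulk libraries. IFI6 was highest in mouse 2 and lowest in mouse 3 in both populations (adjusted p = 0.0200). The count was 0 without bulk replicate 1 or 2 or LSC replicate 1 or 2, when 0.0364% to 0.204% of all genes were called. It was 18 and 21 without bulk replicate 3 and LSC replicate 3, when 23.5% of all genes were called. Such fits keep 1 residual degree of freedom and rest on the spread borrowed across genes. Both libraries of a mouse come from the same animal, so the test speaks of these 3 mice only. Summed CPM of 12 granulocyte precursor markers also differed among mice, at 2507, 4406 and 155 in bulk and 1456, 1629 and 140.0 in LSC of mice 1, 2 and 3, with 2 of them without a read in LSC of mouse 3 and 8 past the mouse test, and their part in the member values was not tested.

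The LSC minus bulk differences were then read within each mouse. The median LSC minus bulk difference of the 40 members was 0.16 and 0.23 in mice 1 and 2 and -0.56 in mouse 3, against 0.09, 0.01 and -0.03 over all genes tested. LSC was higher in 23, 26 and 14 of 40 members in mice 1, 2 and 3, against 53.7%, 50.3% and 48.7% of all genes tested. In 11 members LSC was higher in mice 1 and 2 and lower in mouse 3 (27.5%), a pattern held by 10.4% of all genes tested. The opposite pattern occurred in 1 member, RSAD2 (background 7.82%), while 9 members were higher in LSC in all 3 mice (background 27.3%) and 10 lower in all 3 (background 25.8%). The 11 were IFIH1, DHX58, OAS2, MX2, IFITM3, USP18, EIF2AK2, SAMD9, SAMD9L, IFI16 and XAF1, and they were picked out after their values were seen. With 1 library for each population and mouse the difference between mice in this response has no residual spread and was not tested. Members that passed as higher had the same sign in mouse 3, though smaller changes there for IFI44 (2.08 against 3.23 and 3.44) and IFI44L (1.76 against 3.94 and 3.47). MX1 (1.28 against 2.38 and 1.62) and OAS1, which passed with the block only (1.43 against 6.74 and 1.99), also changed least in mouse 3. For STAT2 the change in mouse 3 lay between the others (1.88 against 1.39 and 1.93).

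In levels, bulk of mouse 3 was the highest library for 13 of 40 members (18.1% of all genes tested have their highest value there) and LSC of mouse 3 the lowest for 11 (22% of all genes tested). Summed CPM of the 40 members was 1799, 1696 and 3221 in bulk and 2737, 3137 and 2075 in LSC of mice 1, 2 and 3, so bulk of mouse 3 exceeded every other library. XAF1, PARP14, SAMD9L, SAMD9, IFI16 and GBP4 were among the members with a bulk value in mouse 3 at least 2 times that in mouse 2. Summed CPM of the B lineage markers was 1437 in bulk of mouse 3 against 297 and 208 in bulk of mice 1 and 2. That of the plasmacytoid dendritic cell markers was 556 against 202 and 208. Granulocyte precursor and erythroid markers instead had their lowest bulk sums in mouse 3, at 155 and 291 CPM. The part of these markers in the member values was not tested. On mice 1 and 2 alone, with the block, 11 members were higher in LSC (background 12.7%) and 5 lower (background 11.4%), in a fit with 1 residual degree of freedom. The members that then joined those above were OAS2, SAMD9L, IFI16, USP18, MX2 and XAF1. All of these belong to the members named above as higher in LSC in mice 1 and 2 and lower in mouse 3. That list was picked after the values were seen, so the calls are no separate support. Leaving out mouse 1 or mouse 2 instead gave fewer members higher in LSC, and fewer of all genes.

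**Figure D4:**
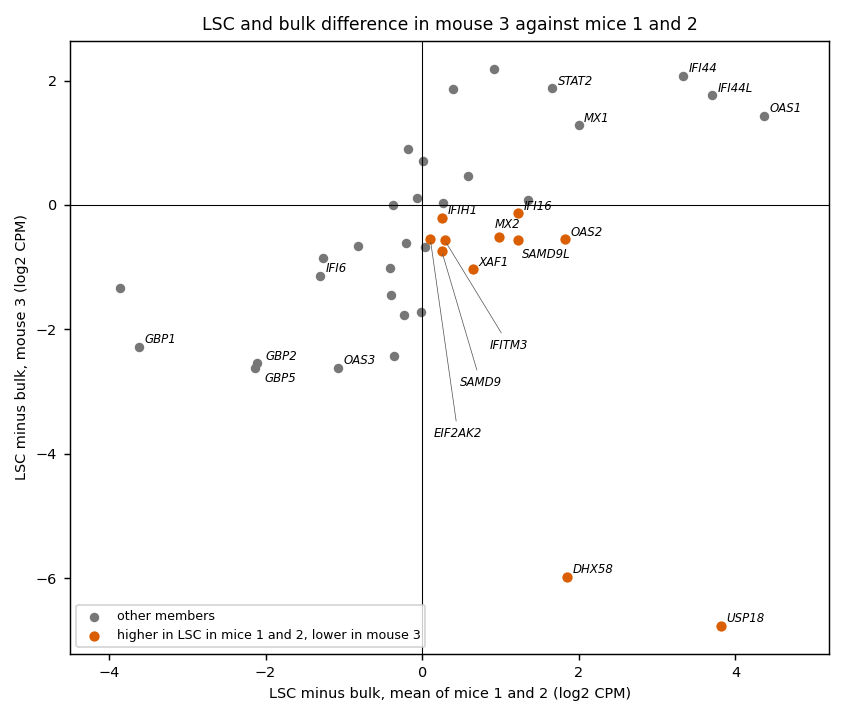
LSC minus bulk difference in log2 CPM in mouse 3 (vertical axis) against the mean of mice 1 and 2 (horizontal axis), with a point for each of the 40 genes. The 11 orange points are higher in LSC in mice 1 and 2 and lower in mouse 3, and DHX58 and USP18, without a read in LSC of mouse 3, lie farthest down.

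The machinery upstream of these genes was read from a list of 104 further interferon pathway genes, of which 76 were tested. Of these 7 rose (9.21%, background 2.71%) and 1 fell (1.32%, background 1.33%). The blocked fit called 17 as higher (background 8.25%) and 3 as lower (background 7.71%). The median log2 change was 0.42 and 53 of 76 were positive, against -0.0036 and 6846 of 13755 over all genes tested. IRF7, IRF8, TLR7 and TLR9 are also on the list of plasmacytoid dendritic cell markers, so they are counted in both. The only interferon gene with a row to test was IFNK, at 6, 7 and 14 reads in bulk and 42, 22 and 0 in LSC (log2 change -0.92, adjusted p = 0.806).

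Both chains of the type I receptor were somewhat higher in LSC in all 3 mice. IFNAR1 stood at 52.8, 55.6 and 104 CPM in bulk and 109, 89.3 and 128 CPM in LSC (log2 change 0.68, adjusted p = 0.294, 0.0711 with the block). IFNAR2 stood at 31.01, 32.03 and 34.5 CPM in bulk and 81.2, 54.3 and 58.9 CPM in LSC, with no overlap, and rose with the block only (log2 change 0.97, SE 0.29, adjusted p = 0.102, 0.0282 with it). The interferon gamma receptor chains were nearly even, with changes of 0.24 for IFNGR1 and 0.14 for IFNGR2. Of the kinases, JAK1 and TYK2 had changes of 0.32 and 1.01 that passed neither test, and JAK2 had 0.97 and rose with the block (adjusted p = 0.0129).

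IRF9, the DNA-binding partner of STAT2 in ISGF3, stood at 15.3, 18.7 and 18.9 CPM in bulk and 39.996, 27.2 and 36.9 CPM in LSC, with every LSC library higher, and rose with the block only (log2 change 0.97, SE 0.31, adjusted p = 0.130, 0.0452 with it). The difference between IRF9 and STAT2 was not tested. IRF7, the factor that amplifies interferon production, stood at 2.76, 3.75 and 4.56 CPM in bulk and 148, 51.8 and 139 CPM in LSC (log2 change 4.82, SE 0.46, adjusted p = 0.000979). IRF1, a main factor of the interferon gamma response, rose with the block (log2 change 0.89, adjusted p = 0.0391) and not without it (0.376).

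Without the block, 1 of 8 inhibitors rose, as did 2 of 14 nucleic acid sensing genes, while of 36 further interferon-stimulated genes 2 rose and 1 fell (background 2.71% higher and 1.33% lower). PTPN2, a phosphatase that removes phosphate from JAK1, rose from 94.4, 72.3 and 77.5 CPM in bulk to 247, 171 and 272 CPM in LSC (log2 change 1.48, adjusted p = 0.0235). The endosomal nucleic acid receptors TLR7 and TLR9 and the factor IRF8 rose, with log2 changes of 4.22, 4.09 and 4.54 (adjusted p = 0.00571, 0.0235 and 0.000480). The related receptor TLR8 stood at 29.8, 20.1 and 51.1 CPM in bulk and 9.11, 8.83 and 25.3 CPM in LSC, lower in LSC in 3 of 3 mice, and fell with the block only (log2 change -1.30, adjusted p = 0.195, 0.0166 with it), as did TRIM21, a cytosolic antibody receptor and ubiquitin ligase (-1.50, 0.161 and 0.0361). The interferon-induced genes TRIM22, a viral restriction factor, and LAP3, an aminopeptidase, rose by 1.72 and 1.45 on the log2 scale (adjusted p = 0.0342 and 0.0456), and DDX60L, a helicase-like antiviral factor, fell by 2.01 (0.0321). TRIM22 stood at 66.3, 68.6 and 147 CPM in bulk and 330.0, 218 and 329 CPM in LSC, and DDX60L at 95.7, 70.1 and 88.1 CPM in bulk and 29.9, 27.9 and 10.8 CPM in LSC, both without overlap. Of these, IRF7, IRF8 and TLR7 stayed past the threshold without any single library. The calls of PTPN2, TRIM22 and TLR9 were lost without bulk replicate 1 or 2 or LSC replicate 1 or 3 (adjusted p up to 0.135), and LAP3 without any 1 library. DDX60L was lost without any 1 bulk library or LSC replicate 3. Feedback inhibitors CISH and SOCS3 rose with the block alone (log2 change 2.48 and 2.43, adjusted p = 0.00155 and 0.0152). The cytosolic DNA pathway genes MB21D1 (cGAS), TMEM173 (STING) and TBK1 had changes of -0.41, -1.42 and -0.36 that passed neither test.

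**Figure D5:**
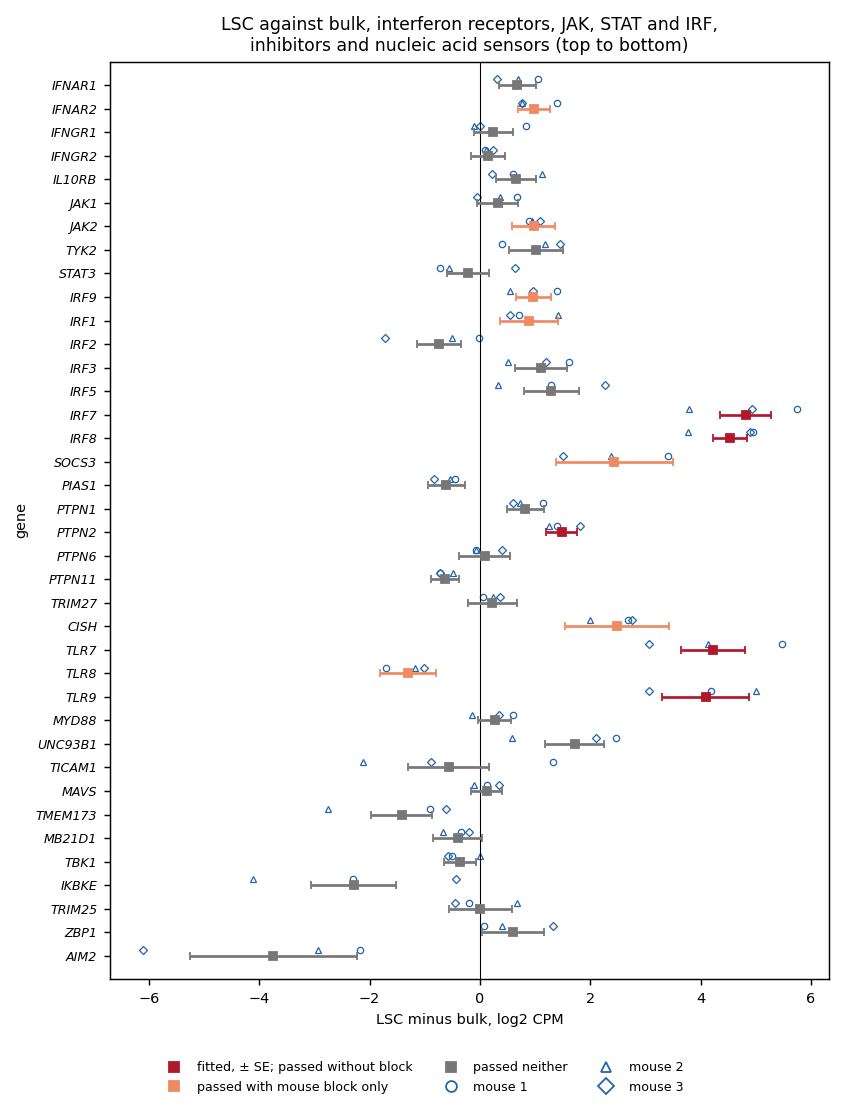
LSC minus bulk difference in log2 CPM of interferon receptor, JAK, STAT and IRF, inhibitor and nucleic acid sensing genes, in that order from top to bottom. Squares are limma estimates with standard error bars (3 libraries in each group) and open symbols the values within each mouse. IRF7, IRF8, TLR7 and TLR9 stand apart at 4.09 to 4.82, and all 5 receptor chains lie to the right of 0.

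In the authors' deposited table the lowest false discovery rate of a member was 0.146, for IFI44 and IFI44L, and none was under 0.05. Of all genes in that table, 0 had a false discovery rate under 0.05. At an unadjusted p under 0.05 that table held 10 members, against 12.4% of its genes: STAT2, MX1, IFI44, IFI44L and OAS1 were higher in LSC and GBP5, GBP2, GBP1, OAS3 and LGALS3BP lower. It was made from the same libraries.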

How the data were processed

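RNA of sorted human AML cells from 3 mice was sequenced after NuGEN Ovation amplification, as the labels' protocols state. Of the authors' tools, the submitters' notes on processing list RSEM, Bowtie2 and edgeR, and hg19 as the build; their steps and versions were not given in the sources used here. The authors deposited 1 table that holds log2 CPM for each library. Beside these, per the file headers, the deposited table has a log2 fold change (coded bulk minus LSC), a mean log2 CPM, a likelihood ratio score, a p-value and a false discovery rate. Organism in the labels is the mouse host, but symbols and build are human. Each of the 6 sample columns matched 1 library, and 21 symbols had turned into dates.

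That the values are logarithms to base 2 was read from their form: each column shares a floor of 0.0197 CPM and climbs in equal steps, which returned whole reads (tolerance 0.1) for 100% of values. These reads are estimates, and amplified reads are not independent molecules. A gene was tested if 3 or more libraries reached 1 CPM, which held for 13755 of 13892 genes and all 40 members. The test was limma 3.58.1 in R 4.3.3 (lmFit, then eBayes with a trend; two-sided) on the log2 values as deposited, adjusted after Benjamini and Hochberg over all genes tested, with 0.05 as threshold. It was tested on simulated reads. No block entered the main fit. Bulk and LSC of 1 mouse share its number by design, and in each mouse they deviated from their group means together (correlations over genes of 0.327, 0.35 and 0.302), so blocked values stand where they change a call. In the unblocked fit, p-values measure the spread between the 3 mice within each population. With the block, and in the mouse test, they rest on the spread left after population and mouse are removed. In each fit eBayes borrows part of the spread across genes.

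Members and gene lists were chosen with earlier results of these data known. Full values are given for members that passed either fit or the mouse test, for the 3 highest and 3 lowest mean log2 CPM and for the 4 largest changes that did not pass. Of the pathway list, IFNAR1, IFNAR2, JAK1, TYK2, IRF9 and IRF7 were named whatever their values, with those that passed, and of the sort markers IL3RA, CD33 and NPM1; any other gene was named after its values were seen. Some results that this rule names are not reported here. Alternatives were other pseudocounts, filters, scalings and variance models, voom on the recovered reads, the mouse as block or random effect, and leaving out libraries or mice. The planned search of promoters for motifs was not run, and sequences and coordinates are left out, since the reference in use was of the host species.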

Additional observations from a re-analysis of the deposited data

How the results depend on the processing

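The unblocked member counts of 4 higher and 1 lower were the same under every pseudocount, filter and scaling tried, array weights and voom on the recovered reads. Without the trend in eBayes, limma called 0 members higher and 0 lower (smallest adjusted p = 0.0637, with 4 and 4 at an unadjusted p under 0.05), 3 pathway genes higher and 0 lower (17 and 6 unadjusted), and 0 members in the mouse test (8 unadjusted). Over all genes tested, that fit called 197 higher and 54 lower, against 373 and 183 with the trend. Its mouse test called 0 of all genes. With the replicate block 5 members were higher and 5 lower, and 17 pathway genes higher and 3 lower (all genes 1135 higher and 1060 lower). With the mouse as random effect 4 members were lower, 16 pathway genes higher and 6 lower (all genes 1090 higher and 983 lower). Those 4 were GBP5, GBP2, OAS3 and LGALS3BP (adjusted p = 0.0483 for the last), while GBP1 and IFI6 were not called (0.131 and 0.130). LGALS3BP entered the test through the bulk libraries alone, so its difference is built in. The mouse test called 1 member, IFI6, with a pseudocount of 5 CPM. Its call of GBP1 was absent with a filter of 5 CPM, which removes that gene.

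Leaving out 1 library gave 1 to 4 members higher and 0 to 1 lower, 3 to 6 pathway genes higher and 0 to 1 lower, and 0 to 21 members in the mouse test. Leaving out both libraries of a mouse gave 0 to 3 members higher and 0 lower, 2 to 7 pathway genes higher and 0 lower, and 0 to 13 members in the mouse test. With the block on 2 mice these were 4 to 11, 2 to 5, 7 to 27 and 1 to 7. Of all genes tested, 168 to 346 were called higher and 38 to 169 lower without 1 library. Without a mouse, 37 to 252 genes were higher and 0 to 74 lower. With the block on 2 mice, 386 to 1747 genes were higher and 296 to 1567 lower. The mouse test called 5 to 3239 of all genes without 1 library and 18 to 2034 without a mouse. Fewer samples enter each of these fits. Where limma called 0, the numbers at an unadjusted p under 0.05 were 5 members higher, 1 to 7 lower, 1 to 6 pathway genes lower and 3 to 12 members in the mouse test. The median change of the members lay between -0.23 and 0.18 over all settings.

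No member that passed either fit changed direction in any setting. Among members that passed neither, direction changed for DHX58 with a pseudocount of 1 CPM (0.46) or 5 CPM (0.28) or quantile normalization (0.018), for IFIT3 with library size outside the MTRNR2L rows (0.047), for IFITM3 with upper-quartile rescaling (-0.0499) or array weights (-0.19) and for SAMD9 with array weights (0.15). The cause was not tested. Leaving out libraries or mice changed the direction of 15 members, with log2 changes of -0.061 to 0.29 for IFIH1, -2.40 to 1.85 for DHX58, -0.18 to 0.22 for IFIT3, -0.96 to 0.42 for IFIT5, -0.029 to 0.68 for OASL. They were -0.094 to 1.02 for MX2, -0.23 to 0.66 for IFITM2, -0.36 to 0.61 for IFITM3, -2.04 to 3.81 for USP18, -0.50 to 0.055 for HERC5. They were further -0.33 to 0.23 for EIF2AK2, -0.59 to 0.011 for RSAD2, -0.51 to 0.44 for SAMD9, -0.0035 to 1.44 for IFI35, -0.27 to 0.65 for XAF1. Depth limits DHX58, USP18, GBP1, OAS1, LGALS3BP and IFI35, which have 0 to 3 reads in their lowest library.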
